A study of Mus musculus with 35 samples.

Results

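Complement was followed through 10 genes in sorted mouse liver macrophages (macs): the C1q chains C1qa, C1qb and C1qc, the classical pathway components C2 and C4b, the central component C3, factor B (Cfb), properdin (Cfp), the terminal component C6, and Vsig4, which encodes the complement receptor CRIg. They were taken by symbol, all 10 of 10 from a list of 54735 symbols in the count files, and all 10 passed the filter on low counts that 13421 genes passed (over 1 CPM, a count scaled to the depth of its library, in at least 5 samples). The libraries came from livers of C57Bl/6J mice, for which the labels give no other allele. Male mice were used for diet experiments, were put on the diets at 5 weeks of age and were studied after 12 or 24 weeks. Mice on the Western diet (WD), which is high in fat, cholesterol and sugar and induces metabolic-associated fatty liver disease (MAFLD), gave CLEC4F+TIM4+ resident Kupffer cells (ResKCs) at 12 weeks (n = 5) and at 24 weeks (n = 6), CLEC4F+TIM4- monocyte-derived Kupffer cells (moKCs) at 24 weeks (n = 5) and CLEC4F-TIM4- macs at 24 weeks (n = 6). Mice on the standard diet (SD), the controls, gave ResKCs at 12 weeks (n = 7) and at 24 weeks (n = 6). For the 5 libraries of WD ResKCs at 12 weeks 1 label field names the standard diet, whereas title and description name the Western diet, which was followed. The moKCs and CLEC4F- macs were compared with WD ResKCs only, since the series holds neither population from SD-fed mice.

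Complement is a cascade of plasma proteins that coat, or opsonise, microbes and dying cells. The classical pathway starts when C1q binds a surface and its proteases cut C4 and C2, the lectin pathway starts from collectins and ficolins, and the alternative pathway runs on factor B and is stabilised by properdin. All of them cut C3, whose fragments are bound by receptors such as CRIg, and the terminal components from C5 to C9 form a pore. The liver makes most plasma complement in its hepatocytes, while macs are a main source of C1q and properdin. Kupffer cells, the resident macs of the liver sinusoids, use CRIg to catch opsonised particles from the blood, and CLEC4F and TIM4 are surface proteins by which they are recognised.

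The genes lie on chromosomes 4, 15, 17 and X of the mouse genome (mm10, GENCODE M21). The C1q chain genes are neighbours on the minus strand of chromosome 4, C1qb at chr4:136880129-136886187, C1qc at chr4:136889804-136893065 and C1qa at chr4:136895917-136898803, with 3616 and 2851 bases between them. C4b (chr17:34728380-34743882), Cfb (chr17:34856374-34862518) and C2 (chr17:34862604-34898265) lie on the minus strand in the same part of chromosome 17, C2 and Cfb 85 bases apart, and C3 lies farther along (chr17:57203970-57228136, minus strand). C6 is at chr15:4727175-4814967 on the plus strand, and Cfp (chrX:20925454-20931555) and Vsig4 (chrX:96247203-96293438) are on the minus strand of chromosome X. In this annotation the readthrough gene Gm20547 shares exons with Cfb and C2, so that 20.5% of the exon bases of Cfb and 53.1% of those of C2 belong to no other gene. Gm20547 had 0 counts in every library, and whether reads in the shared exons were left out of the counts is not known, so the levels of C2 and Cfb may be too low.

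Promoters were taken from RefSeq (GRCm38.p6, 250 bases before to 50 after the start of the gene), which had entries for 6 of the 10 genes and none for C1qa, C2, C4b and Cfb. The promoters of Vsig4 and C6, the genes with a large difference between CLEC4F+ and CLEC4F- cells, and of the C1q neighbours C1qb and C1qc, which moved together, are printed 5′ to 3′ in the direction of the gene. Capitals mark GAGGAA, the core of PU.1 and other ETS sites, and TGCTGA, a MAF half-site, on either strand. The windows are chrX:96293389-96293688 (Vsig4, minus), chr15:4726960-4727259 (C6, plus), chr4:136886151-136886450 (C1qb, minus) and chr4:136892865-136893164 (C1qc, minus).
Vsig4: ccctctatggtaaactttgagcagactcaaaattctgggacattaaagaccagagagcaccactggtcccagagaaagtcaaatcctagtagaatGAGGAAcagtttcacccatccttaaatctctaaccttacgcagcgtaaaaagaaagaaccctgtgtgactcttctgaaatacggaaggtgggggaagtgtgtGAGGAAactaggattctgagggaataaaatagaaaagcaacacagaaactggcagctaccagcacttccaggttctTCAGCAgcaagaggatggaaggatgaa
C6: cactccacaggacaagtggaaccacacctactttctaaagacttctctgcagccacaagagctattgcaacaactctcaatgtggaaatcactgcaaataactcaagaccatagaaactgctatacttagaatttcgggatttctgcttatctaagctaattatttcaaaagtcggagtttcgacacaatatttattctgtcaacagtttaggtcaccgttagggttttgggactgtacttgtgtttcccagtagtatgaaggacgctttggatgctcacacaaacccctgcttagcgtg
C1qb: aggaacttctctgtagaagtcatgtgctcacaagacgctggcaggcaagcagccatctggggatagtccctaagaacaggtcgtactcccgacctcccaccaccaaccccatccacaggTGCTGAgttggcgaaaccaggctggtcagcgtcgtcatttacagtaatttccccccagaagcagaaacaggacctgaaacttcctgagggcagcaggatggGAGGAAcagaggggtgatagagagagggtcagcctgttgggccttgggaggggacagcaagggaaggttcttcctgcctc
C1qc: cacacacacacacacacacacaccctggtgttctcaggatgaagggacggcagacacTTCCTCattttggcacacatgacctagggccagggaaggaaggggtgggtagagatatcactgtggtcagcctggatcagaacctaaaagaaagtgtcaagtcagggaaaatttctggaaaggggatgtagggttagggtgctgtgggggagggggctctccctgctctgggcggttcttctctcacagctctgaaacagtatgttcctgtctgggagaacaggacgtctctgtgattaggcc

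Vsig4 held GAGGAA 2 times, from -155 to -150 and from -53 to -48 relative to the start, and TGCTGA 1 time, from 24 to 29 on the opposite strand. C1qb held each of them 1 time (GAGGAA from -30 to -25, TGCTGA from -131 to -126), C1qc held GAGGAA 1 time on the opposite strand (-193 to -188), and C6 held neither. GAGGAA was found in 4 of the 6 promoters (Vsig4, C1qb, C1qc and Cfp) against 28.3% of all 32851 promoters, and TGCTGA in 3 of 6 (Vsig4, C1qb and C3) against 19.5%. The NF-kB core (GGG and CC with 5 bases of any kind between them) was found in 4 of 6 against 50.8%, whereas the AP-1 site TGACTCA and the CRE TGACGTCA were found in 0 of 6 against 5.2% and 1.8%. No match of 1 motif overlapped a match of another. These are matches of letters in the window and nothing was tested on them.

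Each library held between 11568590 and 15163845 counts, and 3 counts equal 0.194 to 0.263 CPM on the scale of the values given here. The markers of the sort followed the labels in most libraries. Timd4, which encodes TIM4, was at 547 to 1360 CPM in ResKCs, at 2.85 to 30.3 CPM in moKCs and at 3.43 to 14.6 CPM in CLEC4F- macs. Clec4f was at 7326 to 17500 CPM in ResKCs and moKCs and at 294 to 1539 CPM in 5 of 6 CLEC4F- libraries. CLEC4F- mac replicate 4 stood apart with 5488 CPM of Clec4f and a sum over 7 Kupffer cell markers of 13400 CPM, against 2510 to 6680 CPM in the other CLEC4F- libraries. moKC replicate 1 stood apart in C4b and C6, with Timd4 at 9.17 CPM. For C4b, C6 and C3 the main results that rest on these libraries are also given without 1 or both of them. The file headers show alignments named by a first scheme (22 libraries) and a second one (13 libraries), here called the naming schemes. All WD ResKCs at 12 weeks and all SD ResKCs at 24 weeks had the first scheme. The labels do not say whether libraries came from separate mice, so p-values measure the spread between libraries. Fewer cells of a kind and less RNA per cell cannot be told apart in bulk samples.

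**Figure D1:**
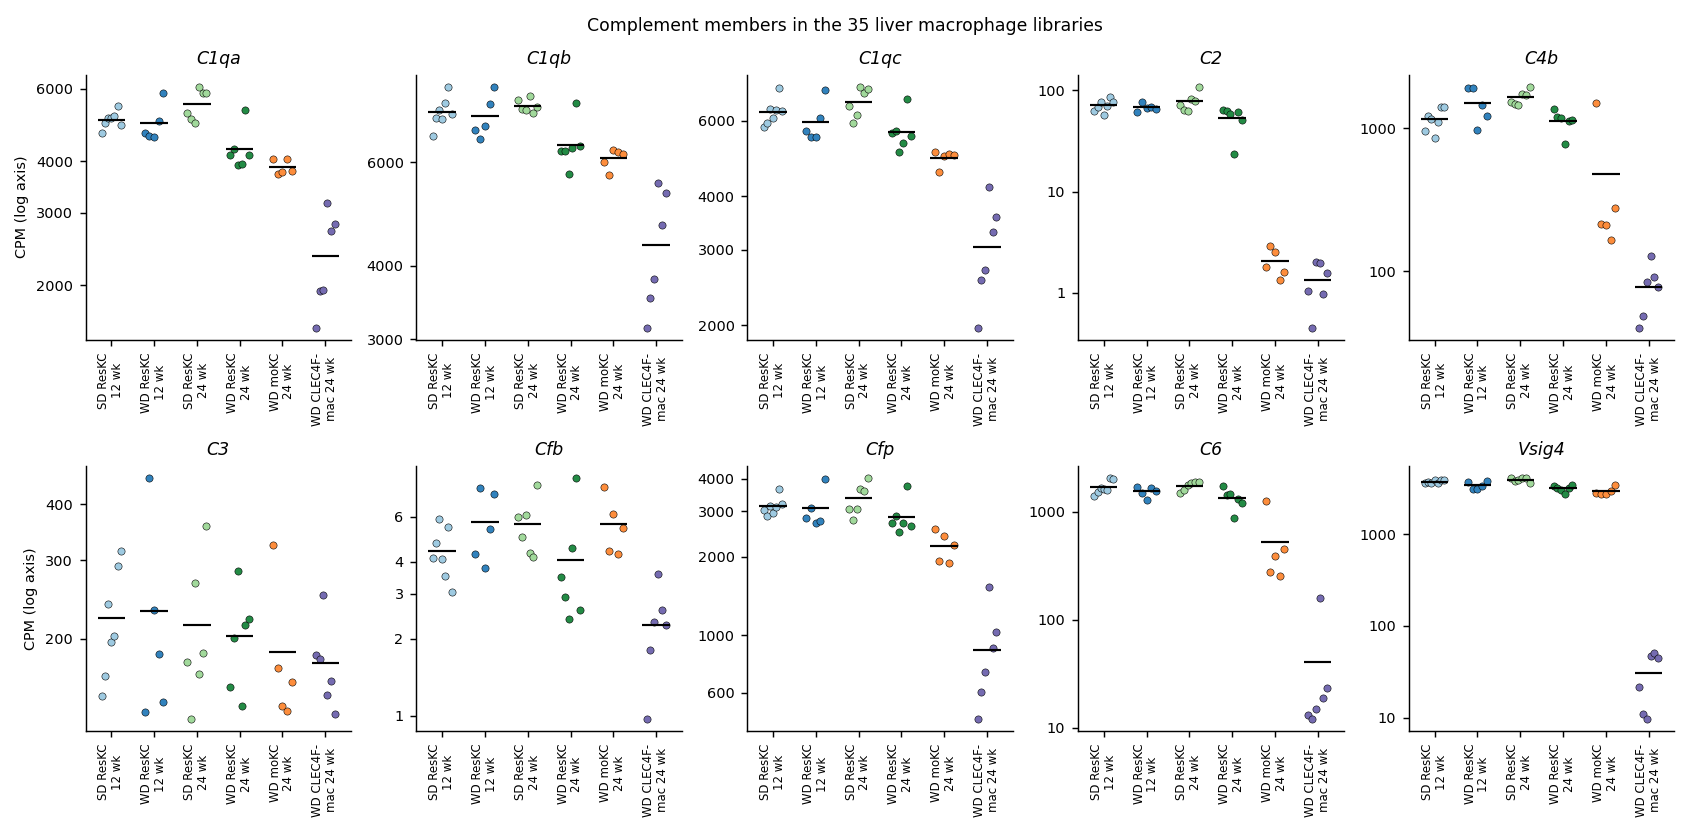
CPM of each gene (log axis, a scale of its own per panel) in the 35 libraries, by group; points are libraries and the line is the group mean. Vsig4, C6 and C4b were lowest in CLEC4F- macs, C2 was low in moKCs as well, and C3 covered a like range in all 6 groups.

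Compared per length, as CPM per 1000 exon bases, the genes covered a wide range of levels in ResKCs. In WD ResKCs at 24 weeks the C1q chains were highest, with 5910 ± 561 (SD, n = 6) for C1qb, 4130 ± 507 for C1qa and 2940 ± 301 for C1qc. Vsig4 followed with 2130 ± 163 and Cfp with 1650 ± 262, and C6 (375 ± 79.7) and C4b (199 ± 33.9) lay below them. C3 was at 39.5 ± 9.93, C2 at 13.8 ± 3.95 and Cfb at 1.44 ± 0.816, or 26 for C2 and 7.02 for Cfb when only the unshared exon bases were counted as length. On this scale C3, the plasma component on which all pathways meet, stood far under C1q and CRIg in these cells.

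The comparison of populations asked how moKCs and CLEC4F- macs differ from ResKCs when all come from mice on the WD. Of the 10 genes, 9 were higher in WD ResKCs than in CLEC4F- macs at an adjusted p under 0.05 (edgeR quasi-likelihood test, Benjamini-Hochberg over 13421 genes), against 17% of all genes, and 0 were lower, against 16.1% (0 of 10 also at an unadjusted p under 0.05, by DESeq2 and by limma-voom). DESeq2 gave no adjusted p for C6 in any comparison, so its counts here and below are over the other members. In either direction 33% of all genes passed this comparison. 5 of the 10 also passed an absolute log2 fold change over 1, against 10.4% of all genes. Between moKCs and CLEC4F- macs 8 of 10 were higher in moKCs (9.34% of all genes), 0 were lower (7.09%, and again 0 unadjusted or by the other tools), and 5 passed both limits (5.05%), where 16.4% of all genes passed in either direction. Between WD ResKCs and moKCs 1 of 10 passed, C2, against 2.99% of all genes, 2% higher in ResKCs, 0.991% lower and 1.39% past both limits. The median log2 fold change of the 10 genes was 1.3 for ResKCs against CLEC4F- macs, 1.02 for moKCs against CLEC4F- macs and 0.17 for ResKCs against moKCs, beside -0.023, 0.005 and -0.019 over all genes. Any 2 of these comparisons share a group, so their values are not independent of each other.

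**Figure D2:**
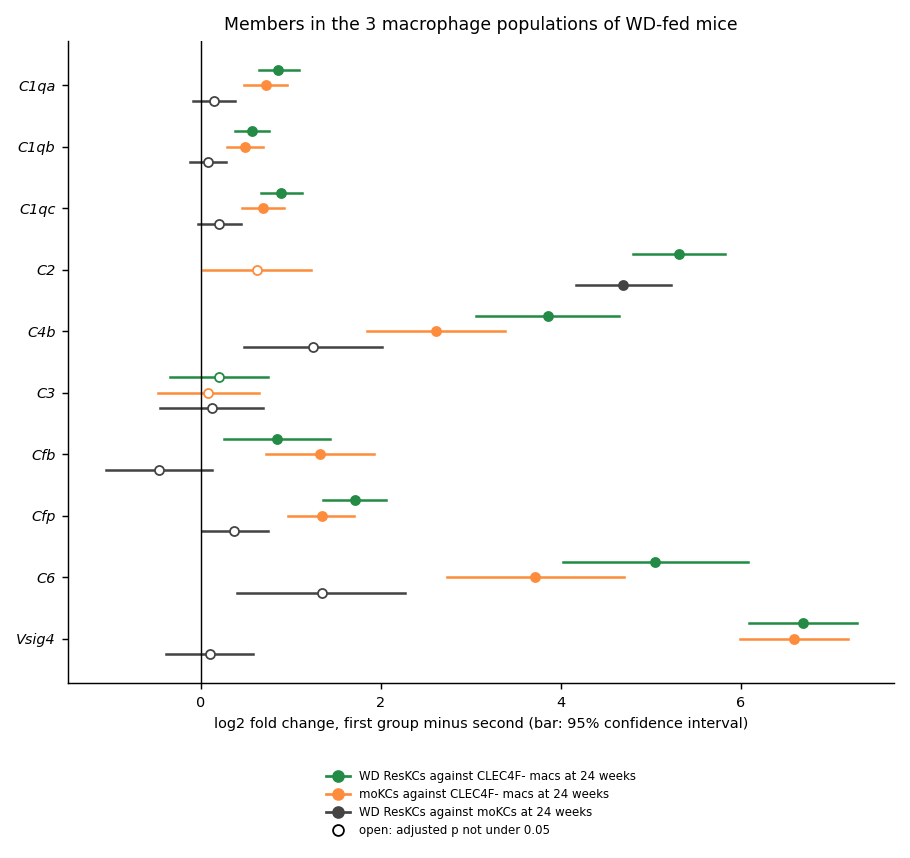
Log2 fold change (x axis, first group minus second) of each gene in the 3 comparisons of the 24-week populations, with bars for the 95% confidence interval; filled points passed an adjusted p under 0.05. Vsig4 stood at 6.69 and 6.59 against CLEC4F- macs and at 0.10 between ResKCs and moKCs, whereas C2 passed in both comparisons of ResKCs.

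Vsig4, the gene of the receptor CRIg, had the largest fold difference of the 10 genes between CLEC4F+ and CLEC4F- cells. Vsig4 was at 2770 to 3440 CPM (median 3200) in WD ResKCs at 24 weeks and at 2852, 2747, 2750, 2984 and 3451 CPM in the 5 moKC libraries. In CLEC4F- macs Vsig4 was at 9.63 to 50.7 CPM (median 33.2). The ranges of ResKCs and moKCs overlapped and both lay far above that of CLEC4F- macs. Vsig4 was 103-fold higher in ResKCs than in CLEC4F- macs (log2 fold change 6.69, SE 0.29, adjusted p = 6.33e-18, edgeR) and 96.5-fold higher in moKCs (6.59, SE 0.29, adjusted p = 2.31e-17). Between ResKCs and moKCs the log2 difference in Vsig4 was 0.10 with a 95% confidence interval from -0.39 to 0.58 (adjusted p = 0.9). Among CLEC4F- macs the 3 libraries of the first naming scheme had 9.63 to 21.3 CPM of Vsig4 and the 3 of the second 45.2 to 50.7 CPM, so that the log2 fold change of ResKCs against them was 7.83 within the first scheme and 6.05 within the second.

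C2, the protease precursor that joins C4 in the classical C3 convertase, followed TIM4 rather than CLEC4F. C2 was at 23.4 to 63.3 CPM (median 59.5) in WD ResKCs at 24 weeks, with the lowest value in replicate 4 and the next at 51.4 CPM. In moKCs C2 was at 1.81, 2.92, 2.55, 1.35 and 1.61 CPM, and in CLEC4F- macs at 0.453 to 2 CPM (median 1.3). The ResKC range lay above both others, which overlapped. C2 was 25.9-fold higher in ResKCs than in moKCs (log2 fold change 4.69, SE 0.26, adjusted p = 6.59e-15, edgeR) and 39.7-fold higher than in CLEC4F- macs (5.31, SE 0.25, adjusted p = 4.31e-17). Between moKCs and CLEC4F- macs the log2 difference was 0.62 with an interval from 0.02 to 1.22 (adjusted p = 0.171). Neither moKC replicate 1 nor CLEC4F- mac replicate 4, the libraries that stood apart in other genes, was raised in C2, with 1.81 and 1.97 CPM.

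C4b, the mouse gene for complement C4, and C6, a component of the terminal pore, had their highest mean in ResKCs, intermediate levels in 4 of 5 moKC libraries and their lowest in CLEC4F- macs. C4b was at 774 to 1360 CPM (median 1160) in WD ResKCs at 24 weeks and at 1512, 213.6, 210, 165.4 and 278.8 CPM in moKCs. In CLEC4F- macs C4b was at 40.2 to 127 CPM (median 80.7). C6 was at 867 to 1720 CPM (median 1370) in ResKCs. The 5 moKC libraries held 1268, 276.1, 391.9, 253 and 452.5 CPM of C6, and the CLEC4F- macs 12 to 160 CPM (median 16.8). In both genes moKC replicate 1 lay within or above the ResKC range, while the other 4 moKC libraries lay between the ranges of ResKCs and CLEC4F- macs. C4b was 14.5-fold higher in ResKCs than in CLEC4F- macs (log2 fold change 3.86, SE 0.39, adjusted p = 2.38e-09, edgeR) and 6.1-fold higher in moKCs (2.61, SE 0.38, adjusted p = 6.79e-06). C6 was 33.1-fold higher in ResKCs (5.05, SE 0.51, adjusted p = 1.91e-09) and 13.1-fold higher in moKCs (3.71, SE 0.49, adjusted p = 1.6e-06). Within the first and the second naming scheme the log2 fold changes of ResKCs were 4.43 and 3.36 for C4b and 6.83 and 4.07 for C6, and those of moKCs 3.90 and 1.14 for C4b and 5.84 and 2.44 for C6.

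Between ResKCs and moKCs the calls of C4b and C6 turned on moKC replicate 1 and on the tool. With all libraries neither passed in edgeR. C4b had a log2 difference of 1.25 (95% confidence interval 0.48 to 2.01, adjusted p = 0.0621) and C6 one of 1.34 (interval 0.40 to 2.27, adjusted p = 0.111). C4b passed with DESeq2 (1.24, adjusted p = 0.034) and limma-voom (1.82, adjusted p = 0.000963), and C6 with limma-voom (1.58, adjusted p = 0.00265). DESeq2 gave no adjusted p for C6. Without moKC replicate 1 C4b was higher in ResKCs by 2.38 (SE 0.24, adjusted p = 3.86e-08) and C6 by 1.96 (SE 0.46, adjusted p = 0.011), and with CLEC4F- mac replicate 4 left out as well both had an adjusted p of 5.19e-09 at the same log2 differences. Within the first naming scheme, which holds moKC replicates 1 and 2, the difference in C4b was 0.53 (adjusted p = 0.748), and within the second it was 2.22 (adjusted p = 0.00119), while that in C6 was 0.99 and 1.63, neither of which passed. With moKC replicate 1 left out the difference between moKCs and CLEC4F- macs became 1.48 for C4b and 3.09 for C6, and without CLEC4F- mac replicate 4, which held 160 CPM of C6 against at most 23.3 CPM in the other CLEC4F- libraries, that of C6 became 5.01. Without CLEC4F- mac replicate 4 the log2 fold change of C6 for ResKCs against CLEC4F- macs became 6.34. All 4 of these values still passed an adjusted p of 0.05, whereas C6 in moKCs against CLEC4F- macs did not within the second scheme alone (2.44, adjusted p = 0.0541).

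moKC replicate 1 was raised in other genes that are high in ResKCs, but not in all such genes. Fcna, which encodes ficolin A, was at 2286 CPM in moKC replicate 1 against 695.6 to 1530 CPM in the other moKC libraries and 2070 to 2940 CPM in WD ResKCs. Its C2 (1.81 CPM) and Timd4 (9.17 CPM) lay within the range of the other moKC libraries. Its Marco, a scavenger receptor gene chosen after its values were seen, was lower (2.65 CPM) than in the other moKC libraries (14.6 to 51.4 CPM). Other Kupffer cell markers, also named after their values were seen, were higher in moKC replicate 1. Cdh5 was at 351.3 CPM, against 189.1 to 246.4 CPM in the other moKC libraries and 295.6 to 397.6 CPM in WD ResKCs at 24 weeks. Clec4f (11620 CPM, others 7326 to 11240 CPM) and Id3 (1073 CPM, others 568.2 to 913 CPM) were the highest of the moKCs. The sum over 7 Kupffer cell markers was 20800 CPM, others 15700 to 22800 CPM. The sum over 12 hepatocyte genes was 3410 CPM in moKC replicate 1 and 1760 to 2560 CPM in the other moKC libraries. This library was also the highest of the moKCs in the sums over 10 immediate-early and heat-shock genes (10500 CPM, others 1820 to 6180 CPM), over endothelial markers (1430 CPM, others 499 to 1130 CPM) and over stellate cell and fibroblast markers (189 CPM, others 83.3 to 162 CPM). The same held for monocyte markers (287 CPM, others 107 to 233 CPM) and conventional dendritic cell markers (31.3 CPM, others 11.5 to 24.4 CPM). The highest hepatocyte sums among ResKCs were in SD replicate 7 at 12 weeks (3880 CPM) and WD replicate 3 at 24 weeks (3900 CPM). These held 1413 and 1174 CPM of C4b and 1993 and 1460 CPM of C6. The lowest were in SD replicate 3 at 12 weeks (502 CPM) and SD replicate 2 at 24 weeks (528 CPM). Those held 1154 and 1469 CPM of C4b and 1663 and 1598 CPM of C6. The libraries differ in diet and time as well, so these values cannot single out the hepatocyte sum. The part of hepatocyte RNA in these levels was not tested beyond a covariate, under which C4b passed between ResKCs and moKCs (1.34, adjusted p = 0.039). With the immediate-early and heat-shock sums as the covariate C4b passed as well (1.45, adjusted p = 0.0474), and the part of the other marker sums was not tested.

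**Figure D3:**
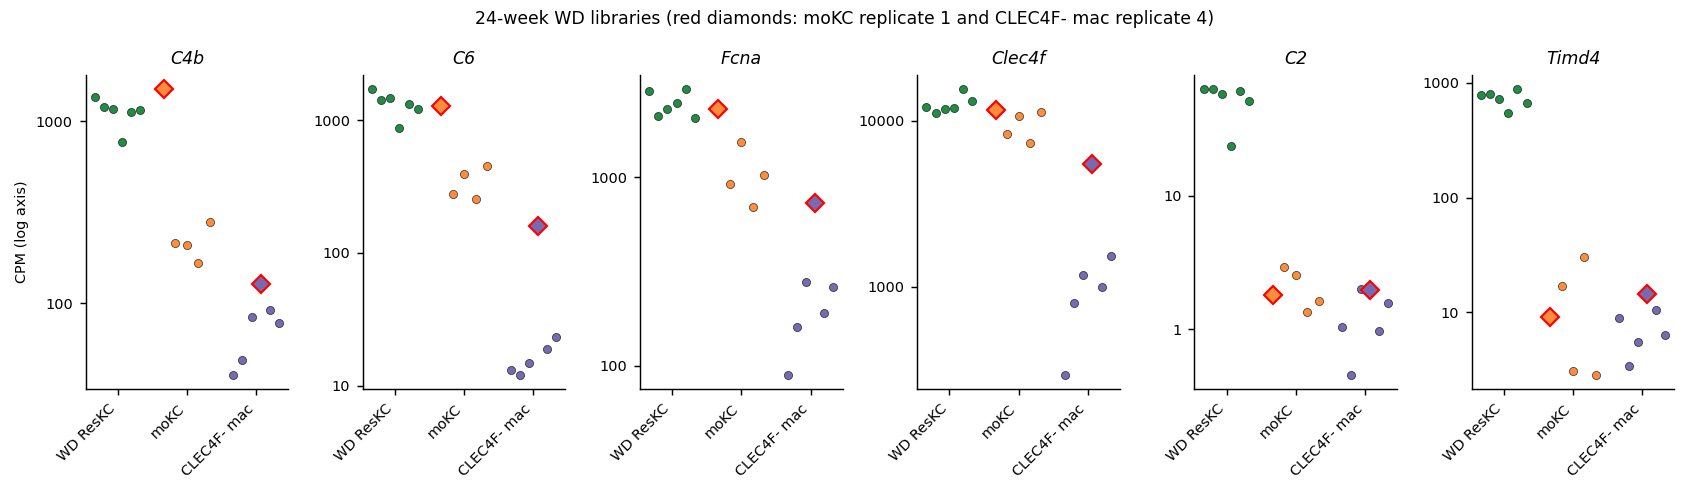
CPM (log axis, a scale of its own per panel) of C4b, C6, Fcna, Clec4f, C2 and Timd4 in the WD-fed 24-week libraries; red diamonds are moKC replicate 1 and CLEC4F- mac replicate 4. The moKC diamond sits at the ResKC level in C4b, C6 and Fcna and at the moKC level in C2 and Timd4, and is the highest moKC in Clec4f. The CLEC4F- diamond is the highest of its group in C4b, C6, Fcna, Clec4f and Timd4, though not in C2.

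The C1q chain genes, which together encode the recognition molecule of the classical pathway, were high in all groups and lower in CLEC4F- macs by less than 2-fold. C1qa was at 3910 to 5330 CPM (median 4150) in WD ResKCs at 24 weeks, at 4043, 3735, 3777, 4048 and 3793 CPM in moKCs and at 1580 to 3170 CPM (median 2320) in CLEC4F- macs. All CLEC4F- libraries lay below all moKC and ResKC libraries in C1qa, C1qb and C1qc. The log2 fold change of ResKCs against CLEC4F- macs was 0.86 for C1qa (SE 0.11, adjusted p = 2.27e-07, edgeR), 0.57 for C1qb and 0.89 for C1qc, and that of moKCs was 0.72, 0.49 and 0.69. All 6 passed, whereas between ResKCs and moKCs none of the chains did (log2 differences from 0.08 to 0.20, adjusted p from 0.407 to 0.782). CLEC4F- mac replicate 4 was the highest CLEC4F- library in each chain (C1qa 3171, C1qb 5522 and C1qc 4199 CPM). Without single libraries the ResKC differences from CLEC4F- macs were 0.76 to 0.97 for C1qa, 0.48 to 0.65 for C1qb and 0.78 to 1.01 for C1qc. Each of these passed. Among CLEC4F- macs the libraries of the first naming scheme had 1580 to 1940 CPM of C1qa and those of the second 2700 to 3170 CPM. Within the second scheme the moKC differences were 0.42 for C1qa, 0.27 for C1qb and 0.43 for C1qc and did not pass (adjusted p = 0.0604, 0.145 and 0.0511), whereas within the first they did. In the CLEC4F- libraries of the second scheme the sum over 5 monocyte markers was 351 to 689 CPM, against 996 to 1330 CPM in those of the first, and the part of this difference in the C1q levels was not tested.

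The chains moved together but not in equal measure. Over the 35 libraries Pearson's r of log2 CPM was 0.98 to 0.99 between the chains, and over the 24 ResKC libraries 0.88 to 0.94, values that share library and depth and are given as a description. The count ratio of C1qb to C1qa, which does not depend on scaling, was 1.42 to 1.61 in WD ResKCs at 24 weeks, 1.49 to 1.67 in moKCs and 1.74 to 1.99 in CLEC4F- macs. The CLEC4F- ratios lay above all others. The mean ratio was 1.86 ± 0.107 (SD, n = 6) in CLEC4F- macs against 1.5 ± 0.0682 (n = 6) in ResKCs (two-sided exact permutation test on log2 ratios, p = 0.00216, the smallest this design allows, 0.00649 adjusted over 3 comparisons) and 1.57 ± 0.0754 (n = 5) in moKCs (exact p = 0.00433, the smallest allowed, 0.00649 adjusted). Within the first naming scheme the log2 ratio of ResKCs was lower by 0.38 than that of CLEC4F- macs, and within the second by 0.23. ResKCs and moKCs overlapped, with a log2 difference of -0.07 (exact permutation p = 0.143). The count ratio of C1qc to C1qa overlapped between the groups and was not tested. It was 1.27 to 1.36 in WD ResKCs at 24 weeks, 1.22 to 1.32 in moKCs and 1.22 to 1.39 in CLEC4F- macs. The test of C1qb to C1qa was chosen after the ratios were seen, and its adjustment does not cover that choice.

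In the alternative pathway, properdin and factor B behaved unlike each other. Cfp was at 2490 to 3760 CPM in WD ResKCs at 24 weeks, 1900 to 2570 CPM in moKCs and 475 to 1530 CPM in CLEC4F- macs, with CLEC4F- macs below both others. Cfp was 3.27-fold higher in ResKCs than in CLEC4F- macs (log2 fold change 1.71, SE 0.17, adjusted p = 2.36e-09, edgeR) and 2.52-fold higher in moKCs (1.34, SE 0.18, adjusted p = 2.01e-06). Between ResKCs and moKCs the difference in Cfp was 0.37 with an interval from 0.01 to 0.74 (adjusted p = 0.294). Cfb was low in macs, at 0.971 to 8.5 CPM over the 35 libraries, which is 14 to 121 counts. Cfb was higher in moKCs (4.29 to 7.81 CPM) than in CLEC4F- macs (0.971 to 3.58 CPM), with a log2 fold change of 1.32 (SE 0.30, adjusted p = 0.00158), although not within the second scheme alone (0.91, adjusted p = 0.307). In ResKCs Cfb ranged from 2.38 to 8.5 CPM and overlapped CLEC4F- macs. The ResKC difference of 0.85 (SE 0.29, adjusted p = 0.021) was lost without WD ResKC replicate 5 (0.50, adjusted p = 0.156), CLEC4F- mac replicate 1 (0.68, adjusted p = 0.071) or CLEC4F- mac replicate 2 (0.78, adjusted p = 0.0505). It was also lost with limma-voom (adjusted p = 0.0611), in a fit of the compared groups alone (0.103) and within each naming scheme (0.129 and 0.176).

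C3, whose fragments are the ligands of CRIg, did not pass in any comparison. C3 was at 141 to 284 CPM in WD ResKCs at 24 weeks, at 138 to 325 CPM in moKCs and at 136 to 251 CPM in CLEC4F- macs, and the 6 groups overlapped. The log2 difference of ResKCs against CLEC4F- macs was 0.20 with an interval from -0.34 to 0.74 (adjusted p = 0.621, edgeR), that of moKCs 0.08 (interval -0.48 to 0.65) and that of ResKCs against moKCs 0.12 (interval -0.45 to 0.69). moKC replicate 1 was the highest moKC library in C3 as well, with 324.5 CPM against 138 to 172 CPM in the others, and without it the difference of moKCs against CLEC4F- macs was -0.21. The count ratio of C3 to Alb, the albumin gene of hepatocytes, was 0.21 to 1.45 over the 35 libraries, and the part of hepatocyte RNA in C3 was not tested beyond a covariate, with which the difference of moKCs against CLEC4F- macs was -0.07.

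The diet comparison asked how the Western diet changes ResKCs. At 12 weeks 0 of 10 genes passed (edgeR), against 0.0373% of all genes, 0 had an unadjusted p under 0.05, and DESeq2 and limma-voom called 0. The log2 fold changes lay between -0.14 and 0.37 (adjusted p from 0.741 to 0.976). At 24 weeks 1 of 10 passed, C1qa, which was lower on the WD, against 8.71% of all genes in either direction, 4.84% higher and 3.87% lower. 0 of 10 passed both limits, against 3.35%, and 4 of 10 (C1qa, C1qb, C1qc and C2) had an unadjusted p under 0.05 by edgeR, against 24.8%. The share called, 1 of 10, was thus near the background. All 10 genes had a negative log2 fold change at 24 weeks, from -0.55 for C2 to -0.08 for C3, with a median of -0.34 beside 0.004 over all genes, and C3 changed sign when libraries were scaled by their size alone (0.00). Sums over 10 immediate-early and heat-shock genes, which respond to handling of cells, were 1100 to 5020 CPM in WD and 2630 to 13900 CPM in SD ResKCs at 24 weeks, and their part was tested only as a covariate.

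C1qa at 24 weeks was at 4957, 5078, 5243, 5853, 5868 and 6074 CPM in SD ResKCs and at 3910, 3931, 4145, 4149, 4288 and 5328 CPM in WD ResKCs. A single WD library, replicate 5, lay within the SD range. The log2 fold change was -0.36 (SE 0.11, interval -0.59 to -0.13, adjusted p = 0.038, edgeR). The call was lost when SD replicate 4, 5 or 6 or WD replicate 1, 2, 3, 4 or 6 was left out, with log2 fold changes from -0.36 to -0.33 and adjusted p from 0.0589 to 0.0827. It was also lost when scaled by library size (-0.28, adjusted p = 0.0547), without the filter (adjusted p = 0.0706) and with a covariate for hepatocyte genes (-0.37, adjusted p = 0.05) or one for the immediate-early and heat-shock sums (-0.35, adjusted p = 0.137). Without WD replicate 5 it passed (-0.43, adjusted p = 0.0148). Within the first naming scheme C1qa and C1qb passed, and with the scheme as a covariate all 3 chains did (C1qb -0.34, adjusted p = 0.0104, and C1qc -0.34, adjusted p = 0.0375). In the main fit C1qb (-0.22) and C1qc (-0.23) did not pass (adjusted p = 0.137 and 0.185, edgeR), while C1qb passed in the compared groups alone (adjusted p = 0.0382).

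Vsig4 and C4b did not pass at 24 weeks, although their WD libraries all lay under their SD libraries. How many of all genes part in this way was not counted, so it is given as a description. Vsig4 was at 3660 to 4120 CPM (median 3970) on the SD and at 2770 to 3440 CPM (median 3200) on the WD, with a log2 fold change of -0.31 (interval -0.78 to 0.15, adjusted p = 0.414, edgeR). C4b was at 1460 to 1960 CPM (median 1620) on the SD and at 774 to 1360 CPM (median 1160) on the WD, with a log2 fold change of -0.54 (interval -1.25 to 0.17, adjusted p = 0.352). The spread of both genes in the test was estimated over all 6 groups, CLEC4F- macs and moKC replicate 1 included. Fitted on the compared groups alone, Vsig4 (-0.32, SE 0.06, adjusted p = 0.00681), C4b (-0.54, SE 0.11, adjusted p = 0.0112), C1qa and C1qb passed. The share of all genes that passed in that fit was not counted, so these calls have no background beside them. C2 was at 63.1 to 109 CPM on the SD and at 23.4 to 63.3 CPM on the WD, with a log2 fold change of -0.55 (SE 0.19, adjusted p = 0.0619), and passed with DESeq2 (adjusted p = 0.0405) and limma-voom (0.0184). WD replicate 4 was the lowest WD library in C2, C4b (774 CPM), C6 (867 CPM) and Vsig4 (2770 CPM), and also in Timd4 (547 CPM).

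**Figure D4:**
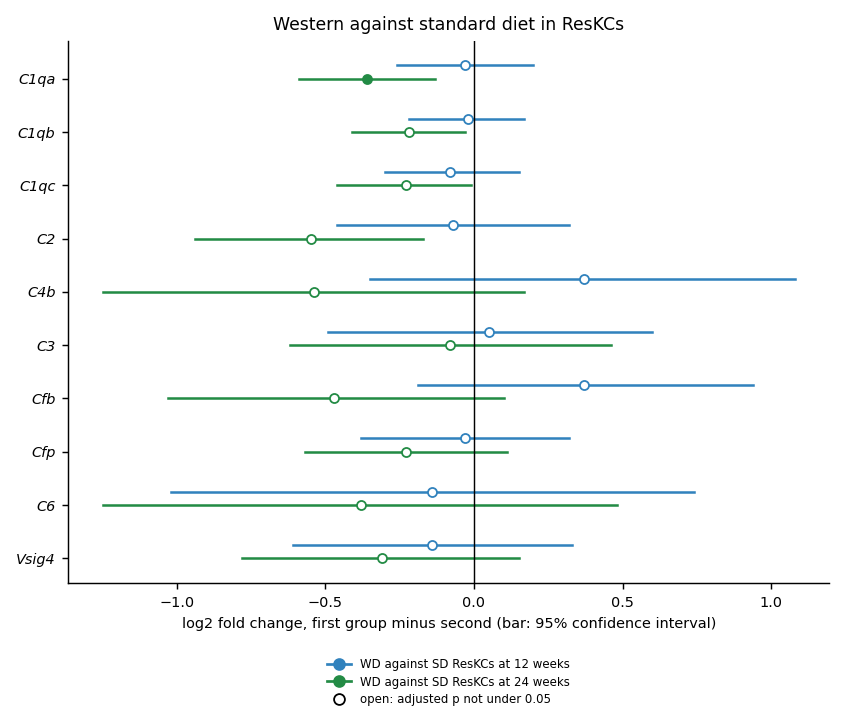
Log2 fold change of WD against SD ResKCs (x axis) at 12 and at 24 weeks for each gene, with bars for the 95% confidence interval; filled points passed an adjusted p under 0.05. C1qa at 24 weeks (-0.36) is the filled point, and all 10 points at 24 weeks lie left of 0.

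Time on the diet was compared within ResKCs. From 12 to 24 weeks 0 of 10 genes passed on the SD, where 0% of all genes passed, and 0 of 10 on the WD, against 3.26% of all genes. In both, 0 of 10 had an unadjusted p under 0.05 by edgeR, and DESeq2 and limma-voom called 0. On the SD C4b was at 1460 to 1960 CPM at 24 weeks and at 862 to 1410 CPM at 12 weeks, with a log2 difference of 0.50 (interval -0.18 to 1.19, adjusted p = 0.693). All 24-week SD libraries had the first naming scheme and 4 of 7 at 12 weeks the second. The WD effects at 24 and 12 weeks did not differ for any of the 10 genes at an adjusted p of 0.05 (0.283% of all genes passed). DESeq2, which gave no adjusted p for C6, and limma-voom called 0. C1qa (-0.33, SE 0.16, adjusted p = 0.337, edgeR) and Cfb (-0.84, SE 0.39, adjusted p = 0.332) had an unadjusted p under 0.05, against 14.1% of all genes.

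The remaining complement genes were taken as a list of 47 initiators, regulators, terminal components and receptors, of which 40 passed the filter. Against CLEC4F- macs 4 list genes passed as higher (among them C4a, which passed the filter only through ResKC libraries) and 6 as lower in WD ResKCs. In moKCs 2 passed as higher and 4 as lower. Beside the 17% higher and 16.1% lower over all genes in the first comparison, and 9.34% and 7.09% in the second, these counts were near or under the background. Between ResKCs and moKCs 0 of 40 passed by edgeR, against 2.99% of all genes. At an unadjusted p under 0.05 by edgeR 7 of 40 passed, near the 15.9% of all genes. DESeq2 called 2 and limma-voom 1, and the share of all genes called by these tools was not counted. The medians over the list were 0.17, 0.29 and -0.07. Fcna, ficolin A of the lectin pathway, had a mean of 2450 ± 370 CPM (SD, n = 6) in WD ResKCs and 1290 ± 636 CPM (n = 5) in moKCs, and of 285 ± 230 CPM (n = 6) in CLEC4F- macs. It was 8.59-fold higher in ResKCs than in CLEC4F- macs (log2 fold change 3.10, SE 0.32, adjusted p = 2.39e-09, edgeR) and 4.52-fold higher in moKCs (2.18, SE 0.31, adjusted p = 5.34e-06). The means rest in part on moKC replicate 1 (2286 CPM) and CLEC4F- mac replicate 4 (732.6 CPM, others 89.4 to 277 CPM). Without single libraries the log2 fold change was 2.91 to 3.64 for ResKCs and 1.87 to 2.72 for moKCs, and each passed. C4a, a near-identical copy of C4b, was at no more than 1.49 CPM in any library, so its higher level in ResKCs (1.86, adjusted p = 0.000877) cannot be told apart with certainty from reads of C4b, and it did not pass within the second naming scheme alone (1.76, adjusted p = 0.126). C1ra, a C1 protease, and Cr1l, a membrane regulator, were the other genes higher in ResKCs, with log2 fold changes of 0.78 and 0.17. Within the second naming scheme alone C1ra did not pass in either comparison (0.39 and 0.33), nor did Fcna in moKCs (1.45, adjusted p = 0.0833).

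Of the receptors on the list, 6 passed as lower in ResKCs than in CLEC4F- macs and 0 as higher, beside 16.1% lower and 17% higher over all genes. C5ar2 (0.21), Itgb2 (0.07), C1qbp (-0.07) and Cr2 (-1.91) did not pass. Cd93, first described as a C1q receptor, had means of 12.3 CPM in WD ResKCs and 25.1 CPM in moKCs beside 235 CPM in CLEC4F- macs, lower in ResKCs by 4.24 on the log2 scale (-4.24, SE 0.35, adjusted p = 5.62e-11, edgeR) and in moKCs by 3.22 (-3.22, SE 0.36, adjusted p = 1.87e-07). Itgax, the alpha chain of complement receptor CR4 and a marker of dendritic cells as well, was at 37.6, 70.2 and 285 CPM (-2.92 and -2.02, adjusted p = 1.9e-08 and 5.09e-05). In the CLEC4F- macs the sum over 5 conventional dendritic cell markers was 21.2 to 172 CPM, against 10.1 to 31.3 CPM in WD ResKCs at 24 weeks and moKCs, and that over 5 monocyte markers 351 to 1330 CPM against 87.1 to 287 CPM. Their part in the receptor levels was not tested. The anaphylatoxin receptors C3ar1 (-0.31) and C5ar1 (-0.61), the CR3 chain Itgam (-0.84) and Lair1 (-0.26) were lower in ResKCs by smaller amounts, and of these C5ar1 (-0.55) and Itgam (-0.92) also passed in moKCs. Among them C3ar1 in ResKCs lost its call under 12 of 24 alternatives, Itgam and Cr1l under 6 of 24 each, and in moKCs C5ar1 lost it under 15 of 23 and Itgam under 10 of 23. Lair1 did not pass within either naming scheme alone (adjusted p = 0.0915 and 0.0894). These, C1ra, Cr1l and the genes given below with a log2 fold change under 1 were named after their values were seen.

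**Figure D5:**
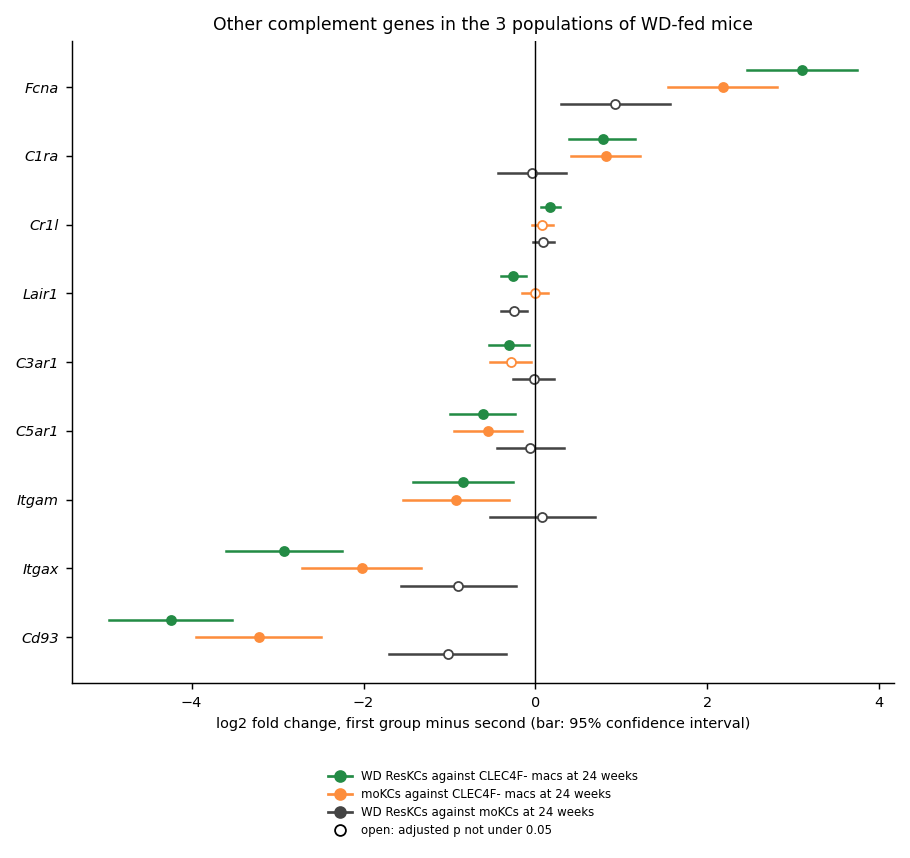
Log2 fold change (x axis, first group minus second) of 9 complement genes outside the 10 followed here, in the 3 comparisons of the 24-week populations, with bars for the 95% confidence interval; filled points passed an adjusted p under 0.05. Fcna and C1ra lie right of 0 against CLEC4F- macs and Itgam, Itgax and Cd93 left of 0.

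On the WD at 24 weeks 5 of the 40 list genes passed in ResKCs against the SD, 2 as higher and 3 as lower, near the 8.71% of all genes. The median log2 fold change over the list was 0.34 at 12 weeks and 0.44 at 24 weeks, beside -0.03 and -0.34 over the 10 members and 0.016 and 0.004 over all genes. Median sums over 12 hepatocyte genes in ResKCs were also higher on the WD. They were 996 CPM (SD) and 1820 CPM (WD) at 12 weeks, and 1420 and 1950 CPM at 24 weeks. The part of hepatocyte RNA in the list medians was not tested. Itgax was 6.17-fold higher (37.6 against 6.1 CPM, log2 fold change 2.63, SE 0.35, adjusted p = 9.85e-06, edgeR), and Cd55, an inhibitor of the C3 convertases on the cell surface, was 3.92-fold lower (51 against 200 CPM, -1.97, SE 0.49, adjusted p = 0.0113). Cd55 was at 22.3 to 88.6 CPM on the WD and at 81.6 to 490 CPM on the SD, and its call was lost with a covariate for immediate-early and heat-shock genes (-1.72, adjusted p = 0.073) and within the first naming scheme (-1.91, adjusted p = 0.121). Lair1 (-0.45), which encodes an inhibitory receptor that binds C1q and collagen, and Cr1l (-0.26) were lower by less than 2-fold. Cfd, factor D or adipsin, the protease of the alternative pathway that fat cells secrete, had 0 counts in all 6 SD libraries and 1 to 68 counts in the 6 WD libraries (0.0753 to 5.22 CPM), a mean at least 8.62-fold higher than the 0.245 CPM that 3 counts allow in an SD library (adjusted p = 0.0374). The call of Cfd was lost under 14 of 22 alternatives, among them leaving out any 1 SD library (adjusted p from 0.0564 to 0.0658) and limma-voom (0.175). At 12 weeks 0 of 40 list genes passed by edgeR, against 0.0373% of all genes, 1 by DESeq2 and 0 by limma-voom. At an unadjusted p under 0.05 by edgeR 5 of 40 passed, against 8.73% of all genes. Between the times on the SD 0 passed by any of these tools, against 0% of all genes by edgeR. There 5 of 40 had an unadjusted p under 0.05 by edgeR, against 9% of all genes. At 12 weeks Cfd had 5 to 309 counts in the 5 WD libraries and 0 in 6 of 7 SD libraries, with 89 in the other. From 12 to 24 weeks of WD Cd93 (1.29, adjusted p = 0.047) and Itgb2 (0.48, adjusted p = 0.0133), the beta chain of CR3 and CR4, were higher and Lair1 was lower (-0.61, adjusted p = 3.37e-05), although Cd93 lost its call under 16 of 21 alternatives and Itgb2 within the first naming scheme alone (0.35, adjusted p = 0.193). Lair1 was the 1 gene of the list whose WD effect differed between 24 and 12 weeks (-0.65, SE 0.10, adjusted p = 0.00424), with means of 356 CPM (SD) and 409 CPM (WD) at 12 weeks and 367 and 268 CPM at 24 weeks. It did not pass within the first scheme alone (-0.70, adjusted p = 0.0739).

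The genes whose levels were most like those of the members over the 35 libraries are given as a description, since the points share group, library and depth. Those most like Vsig4 by Pearson's r of log2 CPM were Pkp4 (0.946), Ptk2 (0.944), Sult1a1 (0.94), Ctsf (0.937) and Icos (0.937). Those most like C1qa were Cpq (0.974), Smagp (0.969), Smpdl3a (0.967), Hfe (0.961) and Aldh2 (0.96). Those most like C6 were Pcolce2 (0.986), Cdh5 (0.982), St3gal5 (0.98), Fcna (0.979) and Icos (0.976), so that Icos was named for Vsig4 and for C6. Within the 24 ResKC libraries C6 went with C2 (r = 0.83) and Vsig4 (0.74), and C3 with none of the others above 0.43.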

How the data were processed

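Bulk RNA-seq was performed by the authors on macs sorted from mouse liver, in 35 libraries of 6 groups. Per the labels and the submitters' processing notes the reads were checked with FastQC (0.11.9), aligned to mm10 with HISAT2 (2.2.0), handled with SAMtools (1.10) and counted per gene with featureCounts (2.0.0). The annotation, the strand setting and the treatment of reads in overlapping genes are not given in the sources used here. The deposited values are raw counts per gene, 1 table per library, with no normalization. Groups were taken from the sample labels.

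Counts were scaled by TMM and tested in edgeR (4.0.16, R 4.3.3) by the quasi-likelihood test, in 1 fit of 6 group means over all 35 libraries, over the 13421 of 54735 genes with over 1 CPM in at least 5 samples. All fold changes, standard errors, 95% confidence intervals and adjusted p-values (Benjamini-Hochberg over all 13421 genes, two-sided) come from this fit unless another is named, and genes passed at an adjusted p under 0.05. CPM in the text are counts over the library's total in the genes that passed the filter times its TMM factor (0.905 to 1.14). The intervals of the fit cover the spread between libraries, and floors of 3 counts cover counting error only. The scripts were tested on simulated counts. The C1qb to C1qa ratio was tested with an exact permutation test (SciPy 1.17.1). The alternatives were DESeq2 (1.42.0), limma-voom (3.58.1, the package of the study), scaling by library size, no filter, the compared groups alone, a replicate block, 3 covariates, and leaving out libraries, and, added after the data were seen, each alignment naming scheme alone. Before averaging, all 86 pairs of replicates were compared by chi-square tests of their counts, and each pair differed by more than sampling noise (12.8 to 102 per degree of freedom). Same-numbered replicates did not deviate together in every pair, so the numbers were not taken as pairs.

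The members, the list of 47 other complement genes and the marker lists were chosen with earlier results of these data known. All 10 members were named in every comparison, list genes where they passed both limits in a population comparison with CLEC4F- macs or in the 24-week diet comparison, and the 5 genes most like Vsig4, C1qa and C6, whereas other genes were named after their values were seen. 1 item of the list is not reported here.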

Additional observations from a re-analysis of the deposited data

Results flagged for a closer look

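Single libraries that stood far from the rest of their group (Dixon's test on log2 CPM at the 95% level) were found in 8 of 60 groups of values, where chance gives about 1 in 20. Among moKCs, replicate 1 was high in C4b (1512 CPM, others 165 to 279 CPM) and in C3 (324.5 CPM, others 138 to 172 CPM), and replicate 2 was low in C1qc (4570 CPM, others 4970 to 5070 CPM). Among CLEC4F- macs, replicate 4 was high in C6 (159.8 CPM, others 12 to 23.3 CPM). Among WD ResKCs at 24 weeks, replicate 4 was low in C2 (23.41 CPM, others 51.4 to 63.3 CPM) and C4b (773.6 CPM, others 1130 to 1360 CPM), and replicate 5 was high in C1qa (5328 CPM, others 3910 to 4290 CPM) and Cfp (3756 CPM, others 2490 to 2870 CPM). The effect of the Western diet on Lair1 differed between 24 and 12 weeks by -0.65 on the log2 scale (SE 0.10, adjusted p = 0.00424, edgeR). The causes were not tested.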

How the results depend on the processing

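In ResKCs against CLEC4F- macs 232 of 239 values of the members kept their direction and side of the threshold, and the 7 that did not were all of Cfb. The count of 9 was 8 to 9 when single libraries were left out and 5 at the study's limits. In moKCs against CLEC4F- macs 219 of 229 values did, and the count of 8 was 8 without any single library, 3 within the second naming scheme and 5 at the study's limits. In ResKCs against moKCs 216 of 229 values did. The count of 1 became 2 with DESeq2, the replicate block, the hepatocyte covariate, the immediate-early and heat-shock covariate and the second scheme alone, and 3 with limma-voom and without both moKC replicate 1 and CLEC4F- mac replicate 4. It was 1 to 3 without single libraries, and 3 without moKC replicate 1. For the Western diet at 24 weeks 192 of 219 values did. The count of 1 became 2 with DESeq2, limma-voom and the first scheme alone, 3 with the scheme as a covariate, 4 in the compared groups alone, and 0 by library size, without the filter, with the immediate-early and heat-shock covariate and at the study's limits. It was 0 to 2 without single libraries, with C1qa and Cfb past the test without WD replicate 5. With the hepatocyte covariate it was 1, C2 in place of C1qa. The other 4 comparisons gave 0 under every alternative run. The share of all genes that passed under each alternative fit was not counted, so these counts of members have no background beside them. In the 3 comparisons of populations and the diet at 24 weeks C3 was the 1 member that changed sign. In the others, where no member passed, 8 members changed sign under some alternative for the diet at 12 weeks, 2 for time on the SD, 2 for time on the WD and 1 for the difference of the WD effects. For the diet at 24 weeks it was 0.00 by library size, 0.01 with the immediate-early and heat-shock covariate, 0.02 with the scheme covariate and -0.20 to 0.13 without single libraries. Between ResKCs and moKCs it was -0.23 within the first scheme and 0.00 to 0.41 without single libraries. Between moKCs and CLEC4F- macs it was -0.01 by library size, -0.07 with the hepatocyte covariate, -0.25 without both libraries, -0.02 within the second scheme and -0.21 to 0.21 without single libraries. Of 585 values of the list genes that passed, 92 lost the call and 0 changed sign. The ratio of C1qb to C1qa between ResKCs and moKCs passed without WD replicate 4 (-0.09). DESeq2 gave no adjusted p for C6, so that setting has no value for it. Same-numbered libraries correlated at -0.357 to 0.263 over the pairs of all comparisons, so the numbers were not taken as pairs. For WD ResKCs against CLEC4F- macs all 6 correlations were positive (0.0242 to 0.263). Replicate 3 of the moKCs has the second naming scheme, and replicate 3 of WD ResKCs at 24 weeks and of CLEC4F- macs the first. Equal numbers may thus not match for moKCs, and whether libraries share a mouse is not known. With the replicate block 1 member changed its call, C4b between ResKCs and moKCs (1.47, adjusted p = 0.0385, edgeR), and C5ar1 in moKCs (-0.56) and Cd93 over time on the WD (1.28) lost theirs. The causes were not tested.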
